A study of Rattus norvegicus with 12 samples.

Results

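Rat aortic vascular smooth muscle cells that had been exposed to angiotensin II (Ang II) for 24 h were compared with cells exposed for 12 h, across all genes that could be named on the array. The members are the 3 arrays titled as Ang II for 24 h and the 3 titled as Ang II for 12 h, 6 of the 12 arrays in the series. The other 6 arrays, 3 after 6 h of Ang II and 3 of untreated control cells, shared the same fit and are used as points of reference. The cells came from the aorta of Sprague-Dawley rats and the labels call them differentiated. Every group, the control included, was grown in M199 medium with 10% fetal bovine serum and kept without serum for 48 h, and the Ang II groups then received 100 nM Ang II. Arrays of a group are numbered as biological replicates, but no label ties them to separate animals or dishes, and p-values then measure only the spread between these arrays. The titles and the series' design text give 6, 12 and 24 h, whereas the treatment protocol in the labels gives 1, 3 or 24 h; the titles are followed here. No untreated cells kept for the longer times were analysed here, so that longer exposure to Ang II and longer time in culture without serum cannot be told apart.

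Ang II is the effector peptide of the renin-angiotensin system. In vascular smooth muscle it acts mainly through the AT1 receptor, which couples to Gq, raises intracellular calcium and drives MAP kinase and growth factor receptor signalling, so that cells contract at once and later change their growth, matrix and metabolism. Smooth muscle cells can move between a contractile state, rich in myosin, tropomyosin and calponin, and a proliferating, matrix-producing state. Cell cycle genes, the sterol and lipid synthesis genes controlled by SREBP factors and the circadian clock are each switched as coordinated groups, which makes them readable in a bulk expression profile.

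Each array gave 1 log2 value per probe set. Within groups, arrays correlated at 0.9975 to 0.9984 across the 14506 genes, and the 24 h arrays correlated with the 12 h arrays at 0.9924 to 0.9938, as a description across genes that are not independent. The interquartile range of all values was 3.22 to 3.30 on the 24 h arrays and 3.31 to 3.44 on the 12 h arrays. Smooth muscle markers were high on all arrays: the contractile list averaged 12.72 on each 24 h array and 12.48 to 12.51 on the 12 h arrays. Markers of other cells averaged 7.31 to 7.33 at 24 h and 7.42 to 7.50 at 12 h for endothelial cells, 5.99 to 6.04 at 24 h and 5.94 to 6.07 at 12 h for leukocytes, and 8.56 to 8.61 at 24 h and 8.65 to 8.72 at 12 h for fibroblasts. An array has no true zero, and these are means of log2 values over lists of different probes, so they are read between times and not between lists. In bulk RNA, fewer cells of a type and less RNA per cell cannot be told apart.

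Between 12 and 24 h, many genes shifted by small amounts and far fewer by more. Of the 14506 genes, 2028 were higher at 24 h than at 12 h (14%) and 1955 were lower (13.5%), by limma with a Benjamini-Hochberg adjusted p under 0.05. Among the 3983 called genes (27.5%), the median absolute difference was 0.28 on the log2 scale, and 2499 of them (62.7%) differed by less than 1.25-fold. At least 1.5-fold differences were found for 133 genes that were higher (0.917%) and 220 that were lower (1.52%), and at least 2-fold differences for 24 that were higher and 53 that were lower. The large changes were thus falls more often than rises, although the calls without a size limit were nearly even. The array values of the 24 h and 12 h groups did not overlap for 40.3% of genes, with 24 h above for 22.2% and below for 18%.

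The even split depended on the scaling. With each array centred on its own median, 2957 genes were higher and 1725 lower, a share of calls higher of 63.2% in place of 50.9%, while a further quantile normalization gave 2092 higher and 2054 lower. Counts of list members are read against the 14% of all genes that were higher and the 13.5% that were lower. Over all genes the median difference between 24 and 12 h was 0.04, against which the shifts of gene groups are read. With the genes in 4 bands of equal size by mean level, it was 0.07 and 0.08 in the lower 2 bands and -0.02 and -0.00 in the upper 2. In the lowest band 245 genes were higher and 38 lower, and in the third 539 were higher and 821 lower. The values at the threshold were small: Hspb2, just inside, was higher by 0.12 with an adjusted p of 0.04996, and Lkaaear1, just outside, differed by 0.18 with an adjusted p of 0.0502.

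**Figure D1:**
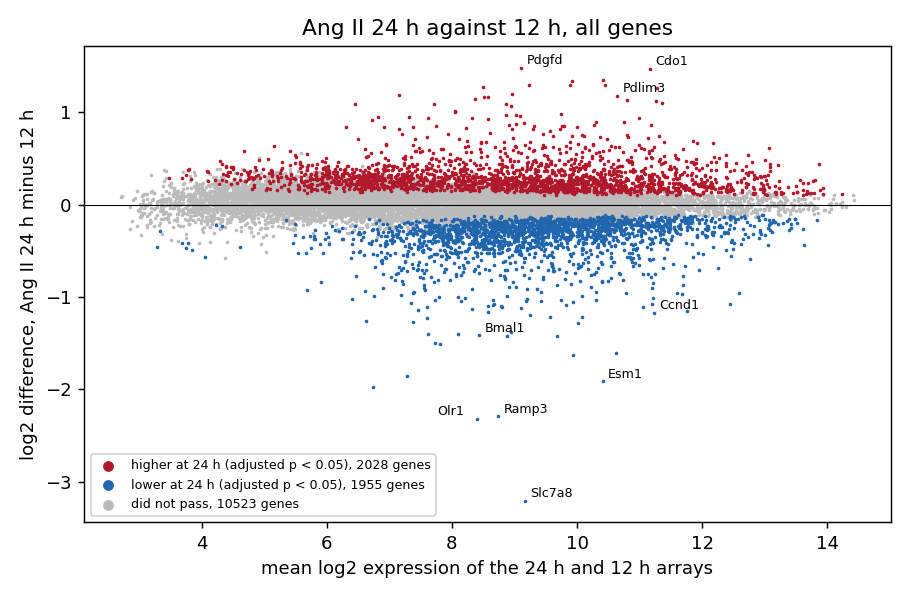
Difference between Ang II 24 h and 12 h (log2, vertical axis) against the mean log2 level of each gene over the 6 arrays of these groups (horizontal axis), 1 point per gene, with called genes coloured by direction. The falls reach -3.20 (Slc7a8) and the rises 1.49 (Pdgfd).

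The genes that fell most between 12 and 24 h had all stood above the control at 12 h, by 1.18 to 3.08 for the 12 largest falls. Slc7a8, which encodes a light chain of a neutral amino acid exchanger, had log2 values of 7.64, 7.53 and 7.53 at 24 h, against 10.82, 10.71 and 10.78 at 12 h. The 2 groups were far apart, with a difference of -3.20 ± 0.05 (SE, n = 3 arrays each), that is 9.22-fold lower (adjusted p = 1.02e-11). At 24 h it was also below the control, by -0.39 ± 0.05 (adjusted p = 9.68e-05). Olr1, the endothelial-type receptor for oxidised low-density lipoprotein, had values of 7.40, 6.94 and 7.39 at 24 h, against 9.49, 9.56 and 9.63 at 12 h. All 24 h arrays lay below all 12 h arrays, and Olr1 was 4.99-fold lower (difference -2.32 ± 0.12, adjusted p = 2.22e-07). Its level at 24 h was still 0.76 ± 0.12 above the control (adjusted p = 0.000658). Ramp3, a partner protein that turns the calcitonin receptor-like receptor into an adrenomedullin receptor, had values of 7.80, 7.35 and 7.63 at 24 h and 9.92, 9.87 and 9.87 at 12 h. It was 4.9-fold lower at 24 h (difference -2.29 ± 0.12, adjusted p = 1.42e-07), with no detectable difference from the control at 24 h (0.15 ± 0.12, adjusted p = 0.346).

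The other 9 of the 12 largest falls were between 2.67-fold and 3.93-fold. Serpinb2, an inhibitor of plasminogen activators, had values of 5.60, 5.36 and 6.28 at 24 h, against 7.85, 7.52 and 7.78 at 12 h. The 24 h arrays differed among themselves by more for this gene than for the others, and all stood below the 12 h arrays (difference -1.97 ± 0.19, adjusted p = 1.85e-05). Esm1, a secreted proteoglycan used as an endothelial marker, fell by 1.91 ± 0.07 and Aldh3a1, an aldehyde dehydrogenase, fell by 1.85 ± 0.12. Slco2a1, the prostaglandin transporter, fell by 1.63 ± 0.07, and Cxcl16, a membrane-bound chemokine and scavenger receptor, fell by 1.61 ± 0.05. Nes (nestin, an intermediate filament protein) fell by 1.51 ± 0.08, Klhl41 (a muscle kelch protein) by 1.49 ± 0.06, Ttc39c by 1.42 ± 0.08 and Robo1 (a receptor for Slit guidance cues) by 1.42 ± 0.05. At 24 h Nes, Klhl41 and Ttc39c had no detectable difference from the control, at 0.11, -0.02 and -0.14 (adjusted p = 0.365, 0.84 and 0.195).

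The largest rises were smaller than the largest falls. Of the 12 largest, 10 had stood below the control at 12 h, by -0.65 to -2.02, and the others, Myh2 and Pdlim3, at -0.13 and 0.27. Pdgfd, a platelet-derived growth factor, had values of 9.94, 9.77 and 9.82 at 24 h, against 8.25, 8.48 and 8.35 at 12 h. The groups did not overlap, and it was 2.8-fold higher at 24 h (difference 1.49 ± 0.08, adjusted p = 1.52e-07) while remaining 0.46 ± 0.08 below the control (adjusted p = 0.000651). Cdo1, which starts cysteine breakdown to taurine and sulfate, had values of 11.88, 11.90 and 11.91 at 24 h and 10.17, 10.45 and 10.65 at 12 h. Here the 12 h arrays were the more spread group, and the difference was 1.47 ± 0.10 (adjusted p = 1.31e-06). Npr3, the clearance receptor for natriuretic peptides, had values of 11.20, 11.02 and 11.04 at 24 h, against 9.62, 9.69 and 9.89 at 12 h (difference 1.35 ± 0.08, adjusted p = 4.97e-07), and it was 0.67 ± 0.08 below the control at 24 h.

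Of the other large rises, several passed the control level. Dbp, a transcription factor driven by the circadian clock, rose by 1.34 ± 0.06 and Cacna1c, the pore-forming subunit of the L-type calcium channel, by 1.30 ± 0.06. Rai2 rose by 1.30 ± 0.06, Myh2 (a fast skeletal myosin heavy chain) by 1.30 ± 0.07 and Popdc3 (a cyclic AMP-binding popeye-domain protein) by 1.27 ± 0.09. Each of these 5 genes was above the control at 24 h, by 0.54, 0.46, 0.45, 1.16 and 0.63 in that order, with adjusted p-values of at most 0.00025. Plpp3, a phosphatase that breaks down lysophosphatidic acid, rose by 1.26 ± 0.07 and had no detectable difference from the control at 24 h (-0.09 ± 0.07, adjusted p = 0.337). Slc24a3, a potassium-dependent sodium-calcium exchanger, rose by 1.20 ± 0.07, Zdhhc23, a protein palmitoyltransferase, by 1.19 ± 0.09, and Pdlim3, a PDZ and LIM protein of the muscle Z-disc, by 1.18 ± 0.06. The comparisons with the control share the 24 h or the 12 h arrays with the one described here, and their values are set side by side only.

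**Figure D2:**
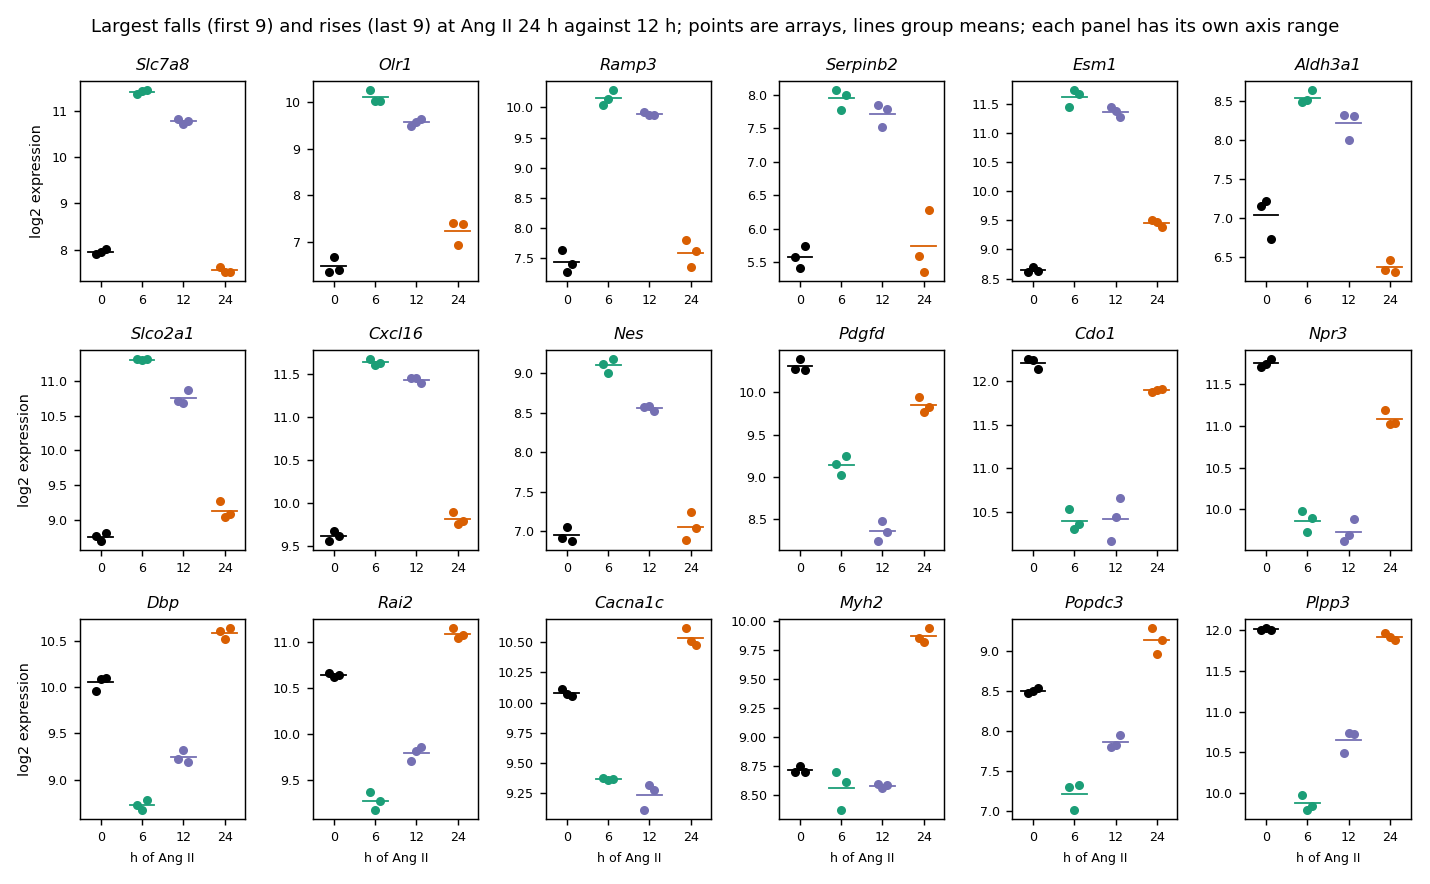
Log2 values (vertical axis, own range in each panel) of single arrays after 0 (untreated), 6, 12 and 24 h of Ang II (horizontal axis) for the 9 largest falls, Slc7a8 to Nes, and then the 9 largest rises, Pdgfd to Plpp3; points are arrays and short lines group means. In every panel the 24 h arrays lie wholly to one side of the 12 h arrays, which was part of the rule that chose these genes.

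The receptor for Ang II itself was higher at 24 h than at 12 h. Agtr1a, the main AT1 receptor gene of rat vessels, had values of 10.60, 10.51 and 10.65 at 24 h, against 9.91, 9.91 and 9.97 at 12 h. The 24 h arrays were all above the 12 h arrays (difference 0.65 ± 0.06, 1.57-fold, adjusted p = 7.43e-06) and all below the control, at -1.20 ± 0.06 (adjusted p = 3.92e-08). For Agtr1b, the second AT1 gene of rodents, the values were 6.45, 6.30 and 6.51 at 24 h and 6.52, 6.56 and 6.44 at 12 h. For Agtr2, the AT2 receptor gene, they were 6.15, 5.73 and 5.92 at 24 h and 6.13, 5.94 and 6.11 at 12 h. The arrays of both genes overlapped between times, with differences of -0.09 ± 0.08 (adjusted p = 0.468) and -0.13 ± 0.13 (adjusted p = 0.499). Both genes were dim, below the array medians of 7.22 to 7.32, and whether they were expressed was not tested. Of the 12 measured genes of the renin-angiotensin list, 3 were higher and 1 lower, with a median of 0.10. These are 25% and 8.33%, against 14% and 13.5% of all genes. Besides Agtr1a, Agt (angiotensinogen) was higher by 0.25 and Agtrap (which binds the AT1 receptor's tail) by 0.15, at adjusted p-values of 0.0382 and 0.0493. Both calls lie near the threshold. Leaving out any one of 6 arrays ended that of Agt (adjusted p up to 0.138 without 12 h array 2). Any one of 11 ended that of Agtrap (up to 0.158 without 12 h array 3). In both cases control and 6 h arrays were among them. Mme (neprilysin, which degrades angiotensin and natriuretic peptides) was lower by 0.34 ± 0.07 (adjusted p = 0.00429).

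Most genes of the cell division cycle lists fell. Of 30 measured G1/S and DNA replication genes, 29 were lower and 0 higher, with a median difference of -0.39, and the one that did not pass was Gins2 (-0.03). Gins1, a subunit of the replicative helicase, had values of 6.46, 6.60 and 6.50 at 24 h and 7.22, 7.31 and 7.28 at 12 h. Its arrays were well apart (difference -0.75 ± 0.05, adjusted p = 1.73e-06). Mcm10, a replication initiation factor, fell by 0.74 ± 0.07, Cdc6, which loads the helicase at origins, by 0.73 ± 0.06, and Mcm6, a helicase subunit, by 0.71 ± 0.06. Mcm5, Tyms (thymidylate synthase), Ccne2 (a cyclin E), Pcna (the sliding clamp of DNA polymerase) and Mcm2 were lower by 0.71, 0.67, 0.57, 0.54 and 0.56 in that order. At 24 h the list stood at a median of -0.43 against the control, where it had stood at -0.21 at 6 h and 0.01 at 12 h. Of the 30 genes, 18 were lowest of all 4 groups at 24 h (4.93% of all genes were so).

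Of 29 measured mitotic genes, 22 were lower and 0 higher (1 without 24 h array 1), with a median of -0.29. Kif23, a kinesin of the cleavage midzone, had values of 9.15, 9.30 and 9.26 at 24 h, against 9.73, 9.66 and 9.65 at 12 h. All 24 h arrays were below (difference -0.44 ± 0.05, adjusted p = 6.61e-05). Mad2l1 and Bub1b, both of the spindle checkpoint, fell by 0.46 ± 0.08 and 0.40 ± 0.08, and Ttk, a checkpoint kinase, by 0.43 ± 0.06. Cdk1, the kinase that starts mitosis, was lower by 0.33 and Top2a, the DNA topoisomerase of dividing cells, by 0.30. The 7 mitotic genes that did not pass were Aurka, Tpx2, Cdc20, Hmmr, Kif20a, Ube2c and Pttg1, at -0.29 to 0.11. The list's median against the control was -0.65 at 24 h, -0.35 at 12 h and -0.59 at 6 h, so the 24 h level was near that at 6 h. At 24 h, 8 of the 29 genes were lowest of all 4 groups (4.93% of all genes were so).

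The promoters of mitotic genes are shown because many genes of this list share short elements near the gene start. In RefSeq windows of the rat assembly GRCr8, 250 bases before to 50 after the start, found for 11952 of the 14506 genes, both strands were searched for the CHR-type element TTTGAA and for CCAAT. The first, TTTGAA, was in 19 of 25 mitotic promoters (76%), against 15.2% of the genes tested and 18.1% of all 27457 promoters in the table. CCAAT was in 18 of 25 (72%), against 38.3% of the genes tested and 37.7% of all promoters. In the following stretches of 150 bases that end at the gene start, written 5′ to 3′ on the gene's strand, capitals mark the elements on either strand. On the other strand the CCAAT box reads ATTGG. The CHR-type element reads TTCAAA there. A match is a description of the letters and not of binding. The stretches were chosen by size of fall among lowered genes whose 150 bases hold both elements, so each holds them by choice. Mad2l1, Ttk and Bub1b, which fell by more than Cdk1 and Top2a, are not among them.
Kif23, chr8:71320585-71320734, minus strand: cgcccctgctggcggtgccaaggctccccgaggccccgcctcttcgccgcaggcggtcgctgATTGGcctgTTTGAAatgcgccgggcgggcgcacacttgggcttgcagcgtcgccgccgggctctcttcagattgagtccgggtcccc
Cdk1, chr20:19265143-19265292, plus strand: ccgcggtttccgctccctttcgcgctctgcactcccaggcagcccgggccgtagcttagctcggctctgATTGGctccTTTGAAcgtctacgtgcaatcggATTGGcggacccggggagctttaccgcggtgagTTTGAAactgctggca
Top2a, chr10:84473094-84473243, minus strand: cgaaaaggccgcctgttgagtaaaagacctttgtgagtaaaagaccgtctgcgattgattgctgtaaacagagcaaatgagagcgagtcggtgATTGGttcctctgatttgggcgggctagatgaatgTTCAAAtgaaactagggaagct
In Kif23 and Cdk1 a CCAAT box in reverse (ATTGG) is followed within a few bases by TTTGAA, and in Top2a the 2 elements lie farther apart, with TTTGAA in reverse.

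The regulators of entry into the cycle were mixed. Among 17 measured D cyclins and cell cycle inhibitors, 4 were higher (23.5%) and 6 lower (35.3%), with a median of -0.03. Over all genes 14% were higher and 13.5% lower. Ccnd1, cyclin D1, had values of 10.72, 10.59 and 10.63 at 24 h, against 11.77, 11.90 and 11.78 at 12 h. The arrays were about 1 log2 unit apart (difference -1.17 ± 0.05, 2.25-fold lower, adjusted p = 7.19e-08), and at 24 h Ccnd1 was 1.42 ± 0.05 below the control (difference -1.42, adjusted p = 7.63e-09). Ccnd2 and Ccnd3 did not pass, at 0.01 and 0.10. Of the inhibitors, Cdkn2b (p15) was lower by 0.53, Cdkn1a (p21) by 0.33 and Cdkn2c (p18) by 0.27, whereas Cdkn1b (p27) was higher by 0.20. Btg1, an antiproliferative cofactor, was higher by 0.46 ± 0.04 and Rb1, the retinoblastoma protein that holds back E2F, by 0.44 ± 0.05.

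Most lipid synthesis genes fell. Of 23 measured genes of cholesterol synthesis and uptake, 19 were lower and 2 higher, with a median of -0.59. Sqle, squalene epoxidase, had values of 10.75, 10.65 and 10.60 at 24 h, against 11.79, 11.74 and 11.69 at 12 h. The 24 h arrays were about 1 log2 unit below (difference -1.07 ± 0.05, 2.1-fold lower, adjusted p = 9.99e-08). Dhcr7, the last enzyme of the pathway, fell by 1.04 ± 0.06, Acat2, which makes acetoacetyl-CoA, by 0.95 ± 0.05 and Insig1, the sterol-sensing brake on SREBP processing, by 0.95 ± 0.04. A second probe set of Insig1 differed by -1.09. The 2 genes that rose, Abca1 (0.59 ± 0.08, adjusted p = 0.000163) and Abcg1 (0.29), encode exporters of cholesterol and not enzymes of its synthesis; 1 gene was higher without any one of 24 h arrays 2 and 3, 12 h arrays 2 and 3 and control array 2. The list's median against the control was -0.05 at 24 h and 0.45 at 12 h. At 24 h, 8 of its genes were lowest of all 4 groups (4.93% of all genes were so). Among them were Sqle, Dhcr7 and Insig1, at -0.46, -0.46 and -0.65 against the control.

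Fatty acid genes moved likewise: of 14 measured, 10 were lower and 0 higher, with a median of -0.46. Fads1, a desaturase for polyunsaturated fatty acids, had values of 11.21, 11.28 and 11.29 at 24 h, against 12.15, 12.12 and 12.12 at 12 h. The arrays were tight in both groups (difference -0.87 ± 0.04, adjusted p = 1.42e-07), and at 24 h no difference from the control was detected (-0.06 ± 0.04, adjusted p = 0.314). Acly, which makes cytosolic acetyl-CoA, fell by 0.75 ± 0.05, Fasn, fatty acid synthase, by 0.66 ± 0.04, and Acaca, which makes malonyl-CoA, by 0.55 ± 0.04. The list's median against the control was -0.07 at 24 h and 0.44 at 12 h.

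CCAAT, a partner site of SREBP-driven promoters, was in 14 of 18 cholesterol promoters (77.8%) and 7 of 11 fatty acid promoters (63.6%), against the same 38.3% of the genes tested. It was also in 16 of 25 G1/S promoters (64%), so it is not a mark of one list. The promoters of 3 cholesterol genes that fell by 0.94, 0.85 and 0.81 are shown for their CCAAT boxes, again 150 bases up to the start with CCAAT or ATTGG in capitals. They were chosen by size of fall among lowered genes whose stretch holds a box. Sqle, Dhcr7, Acat2 and Insig1 fell by more and are not among them.
Mvd, chr19:67414975-67415124, minus strand: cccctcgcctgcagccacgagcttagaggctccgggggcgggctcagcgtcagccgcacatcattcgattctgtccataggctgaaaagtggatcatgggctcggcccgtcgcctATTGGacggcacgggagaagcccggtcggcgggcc
Idi1, chr17:66547525-66547674, minus strand: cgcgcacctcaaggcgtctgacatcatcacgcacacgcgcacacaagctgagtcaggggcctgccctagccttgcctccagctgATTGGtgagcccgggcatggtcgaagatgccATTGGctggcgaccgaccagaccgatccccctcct
Hsd17b7, chr13:84722755-84722904, minus strand: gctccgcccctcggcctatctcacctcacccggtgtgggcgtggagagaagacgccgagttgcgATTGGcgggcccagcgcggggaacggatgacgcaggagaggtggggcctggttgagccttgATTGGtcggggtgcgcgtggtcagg
All of the boxes in these 3 stretches read ATTGG on the gene's strand, 1 in Mvd (mevalonate diphosphate decarboxylase) and 2 each in Idi1 (isopentenyl diphosphate isomerase) and Hsd17b7 (a sterol and steroid reductase).

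Most contractile genes rose by small amounts. Of 19 measured smooth muscle contractile and SRF-target genes, 14 were higher and 0 lower, with a median of 0.24, and 13 were highest of all 4 groups at 24 h (4.81% of all genes were so). Myh11, the smooth muscle myosin heavy chain, had values of 13.40, 13.40 and 13.34 at 24 h, against 12.72, 12.79 and 12.81 at 12 h. The arrays did not overlap (difference 0.61 ± 0.04, 1.53-fold, adjusted p = 7.21e-07), and Myh11 was 0.44 ± 0.04 above the control at 24 h. Tpm2, a tropomyosin, rose by 0.43 ± 0.04, Smtn, smoothelin, by 0.39 ± 0.04 and Mylk, myosin light chain kinase, by 0.30 ± 0.04. Acta2 (smooth muscle actin), Tagln (SM22), Des (desmin), Vcl (vinculin) and Myocd (the SRF cofactor myocardin) did not pass, at 0.10, 0.10, -0.08, -0.05 and 0.04. The list's median against the control was 0.34 at 24 h and 0.11 at 12 h. Over the same interval, 5 of 13 fibroblast markers were lower and 0 higher (median -0.10), among them Pdpn by 0.47 ± 0.05 and Dcn by 0.35 ± 0.07; without 12 h array 3 or without 24 h array 2 this count was 3. The part of a change in cell make-up in these values was not tested.

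Among 27 measured ion channel and calcium handling genes, 9 were higher (33.3%) and 6 lower (22.2%), with a median of 0.07. Over all genes 14% were higher and 13.5% lower. The members of the list differed by channel type. Cacna1c had values of 10.62, 10.51 and 10.48 at 24 h, against 9.11, 9.32 and 9.28 at 12 h, the largest change of the list (2.46-fold, adjusted p = 5.22e-08). Kcnma1, the pore of the large-conductance calcium-activated potassium channel, had values of 7.30, 7.15 and 7.45 at 24 h and 6.44, 6.49 and 6.11 at 12 h (difference 0.95 ± 0.10, adjusted p = 3.63e-05), and its smooth muscle subunit gene Kcnmb1 was higher by 0.26. Kcnn4, the intermediate-conductance channel known from proliferating smooth muscle, went the other way, with 7.64, 7.85 and 7.62 at 24 h against 8.62, 8.71 and 8.79 at 12 h (2.01-fold lower, adjusted p = 1.01e-05). Kcnk2, a mechanosensitive background potassium channel, fell by 0.82 ± 0.05. Pln (phospholamban) and Atp2b4 (a plasma membrane calcium pump) were higher by 0.41 and 0.50, and Trpc6 and Itpr2 were lower by 0.40 and 0.51.

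**Figure D3:**
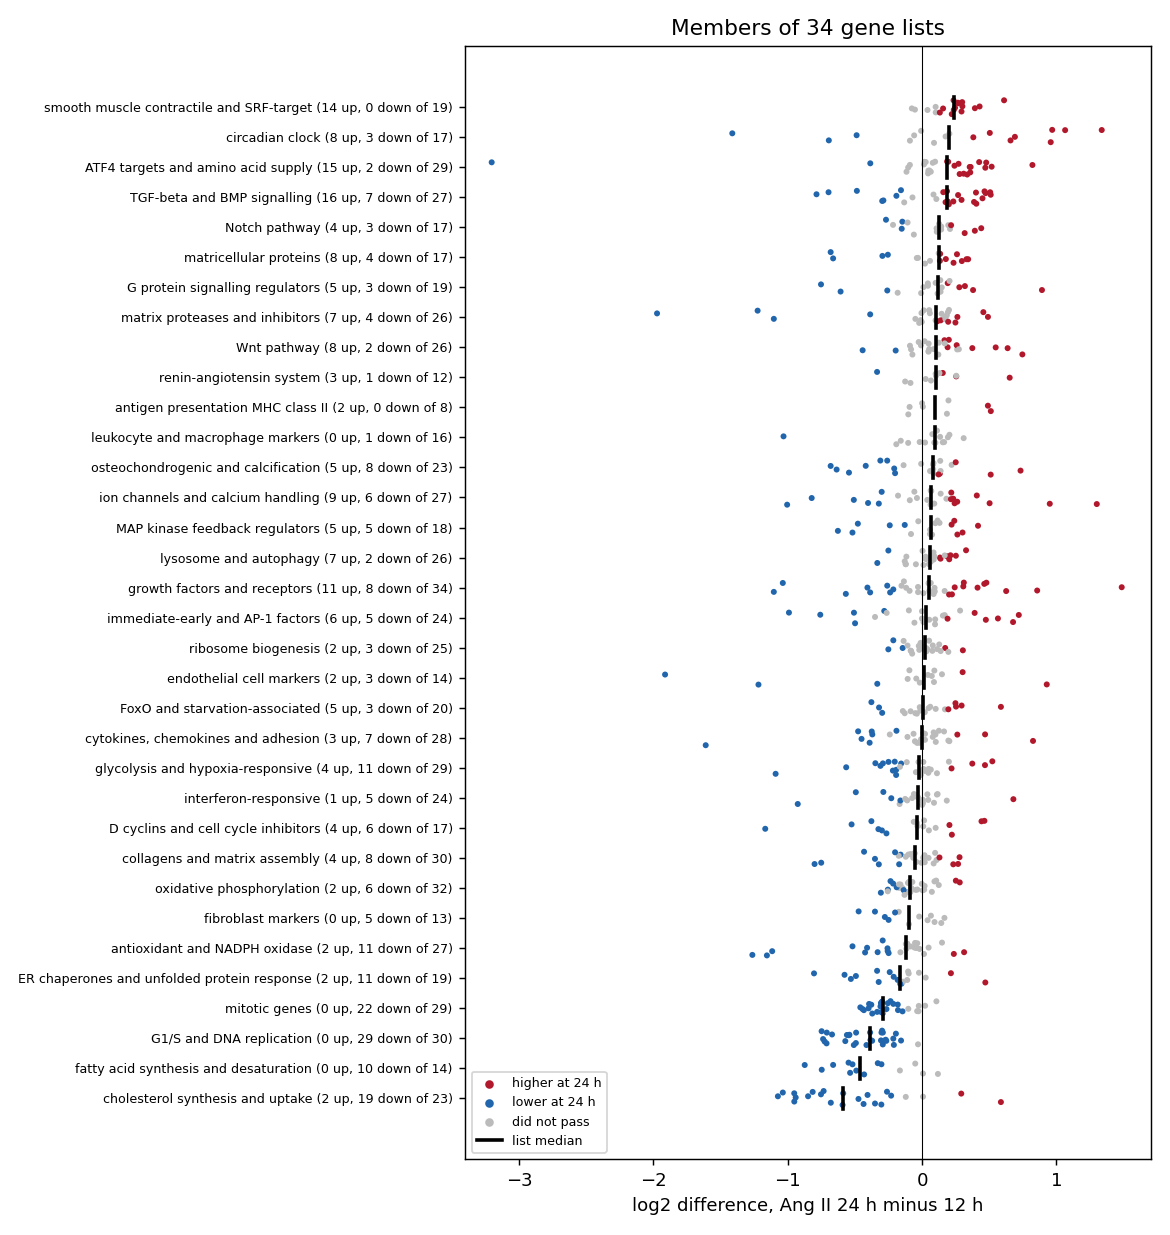
Differences between Ang II 24 h and 12 h (log2) of the measured members of the gene lists, 1 row per list, each point a gene coloured by its call and the black bar the list's median. The G1/S, cholesterol and fatty acid lists lie almost wholly below 0, with medians of -0.39, -0.59 and -0.46, and the contractile list lies mostly above, with a median of 0.24.

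Clock genes changed in both arms of the loop. Of 17 measured, 8 were higher and 3 lower, with a median of 0.20. Bmal1, the activator at the core of the loop, had values of 7.89, 7.59 and 7.70 at 24 h, against 9.13, 9.12 and 9.18 at 12 h. The 24 h arrays were all lower (difference -1.41 ± 0.07, 2.66-fold lower, adjusted p = 1.45e-07). Npas2, a partner of Bmal1, and Bhlhe40, a repressor, were lower by 0.69 and 0.49. Dbp, which Bmal1 is known to drive, had values of 10.60, 10.52 and 10.64 at 24 h, against 9.22, 9.33 and 9.20 at 12 h, Per3 rose by 1.06 ± 0.05 and Per2 by 0.97 ± 0.05, both period repressors. Nr1d2 and Nr1d1, the REV-ERB repressors of Bmal1, were higher by 0.96 and 0.66, Tef, a relative of Dbp, by 0.69, Bhlhe41 by 0.50 and Per1 by 0.38. Clock, Cry1, Cry2, Nfil3, Csnk1d and Csnk1e did not pass, with differences between -0.09 and 0.20. Against the control the list's median was 0.03 at 24 h and -0.27 at 12 h, and Bmal1 stood at -0.68 ± 0.07 at 24 h and 0.73 at 12 h. The E-box CACGTG was in 3 of 15 clock promoters (20%), against 7.88% of the genes tested, and the share was higher in the FoxO (35.3%), ribosome biogenesis (30.4%), ATF4 (23.1%) and lysosome (21.7%) lists, so it is not a mark of one list. Since no untreated cells were sampled at the same hours, time of day and Ang II cannot be told apart.

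Early response genes moved in both directions at this late interval. Of 24 measured immediate-early and AP-1 factors, 6 were higher (25%) and 5 lower (20.8%), with a median of 0.03. Over all genes 14% were higher and 13.5% lower, with a median of 0.04, so the list as a whole did not shift. Against the control the list's median was -0.93 at 24 h and -1.10 at 12 h. Nr4a1, an orphan nuclear receptor, had values of 9.38, 9.29 and 9.32 at 24 h, against 8.46, 8.58 and 8.79 at 12 h (difference 0.72 ± 0.11, adjusted p = 0.000387), and remained 2.61 ± 0.11 below the control (difference -2.61). Nr4a2 rose by 0.68 ± 0.06 and Egr1, a zinc finger factor, was higher by 0.56. Klf4, a factor known to oppose contractile gene expression, had values of 8.49, 8.20 and 8.46 at 24 h, against 9.34, 9.34 and 9.44 at 12 h (difference -0.99 ± 0.07, adjusted p = 2.32e-06), and its second probe set differed by -0.70. Klf2, a related factor, fell by 0.76 ± 0.08, and Fosl1 (Fra-1) was lower by 0.51. Fos, Jun and Myc did not pass, at 0.10, -0.00 and -0.10.

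The negative regulators of signalling were split, where 14% of all genes were higher and 13.5% lower. Of 18 MAP kinase feedback genes, 5 were higher and 5 lower, with a median of 0.07; the count higher was 3 without 24 h array 1, and the count lower was 3 without 24 h array 2 or 3. Rasa1, a Ras GTPase-activating protein, fell by 0.63 ± 0.04, Dusp10, a phosphatase of p38 and JNK, by 0.52 ± 0.07 and Spred2 by 0.48 ± 0.05, whereas Dusp1 rose by 0.42 ± 0.05. Of 19 regulators of G protein signalling, 5 were higher and 3 lower, with a median of 0.12, and the count higher was 3 without 12 h array 1 and 2 without 12 h array 3. Rgs4, which shortens Gq signals, had values of 10.81, 10.68 and 10.78 at 24 h, against 9.76, 9.89 and 9.94 at 12 h (difference 0.89 ± 0.10, adjusted p = 6.27e-05). Rgs17 fell by 0.75 ± 0.05 and Grk5, a receptor kinase that starts desensitisation, by 0.61 ± 0.06.

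Of 19 chaperones and unfolded protein response genes of the endoplasmic reticulum, 11 were lower and 2 higher, with a median of -0.16. Creld2, a secreted stress-induced chaperone, had values of 9.46, 9.26 and 9.49 at 24 h, against 10.21, 10.20 and 10.21 at 12 h (difference -0.80 ± 0.06, adjusted p = 1.69e-06), and Atf6, a sensor of the response, fell by 0.58 ± 0.04, Sdf2l1 by 0.53 ± 0.04 and Hyou1 by 0.49 ± 0.05. Hspa5 (BiP) was lower by 0.21, while Herpud1 and Syvn1, both of the degradation arm, were higher by 0.47 and 0.21. All 15 promoters of this list that could be looked up hold a CCAAT (100%), against 38.3% of the genes tested. The same held for all 6 promoters of the MHC class II list, so it is not a mark of one list.

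Of 27 antioxidant and NADPH oxidase genes, 11 were lower and 2 higher, with a median of -0.12. Nox1, the inducible oxidase of smooth muscle, had values of 6.12, 5.93 and 5.93 at 24 h, against 7.28, 7.21 and 7.29 at 12 h. The arrays were more than 1 log2 unit apart (difference -1.26 ± 0.07, 2.4-fold lower, adjusted p = 4.13e-07), and Nox1 remained 0.34 ± 0.07 above the control. Nox4, the constitutive oxidase, was higher by 0.24. Nqo1, a quinone reductase and a classic NRF2 target, had values of 11.18, 11.17 and 11.16 at 24 h and 12.29, 12.33 and 12.37 at 12 h (difference -1.16 ± 0.04, adjusted p = 1.94e-08). Gss, glutathione synthetase, fell by 1.12 ± 0.06, Txnrd1, thioredoxin reductase, by 0.52 ± 0.06, and Nfe2l2 (NRF2 itself) was lower by 0.26. Hmox1 and Gclc, other NRF2 targets, did not pass, at -0.16 and -0.12.

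Of 29 ATF4 targets and amino acid supply genes, 15 were higher, 2 lower and 12 did not pass, with a median of 0.19. Chac1, which breaks down glutathione, had values of 10.11, 10.18 and 10.13 at 24 h, against 9.24, 9.42 and 9.30 at 12 h (difference 0.82 ± 0.07, adjusted p = 3.98e-06). Ddit3 (CHOP) rose by 0.52 ± 0.08 and Slc1a5, a glutamine transporter, by 0.48 ± 0.05, and Trib3, Asns (asparagine synthetase) and Atf4 itself were higher by 0.47, 0.31 and 0.28. The 2 that fell were the transporters Slc7a8 and Slc7a3, the second by 0.39. Other transporters of the list were higher, namely Slc7a1 by 0.35 and Slc7a5 by 0.36.

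Genes of energy metabolism were called in both directions, where 14% of all genes were higher and 13.5% lower. Of 29 glycolysis and hypoxia-responsive genes, 11 were lower and 4 higher, with a median of -0.03. Pfkp, a phosphofructokinase, had values of 8.23, 7.98 and 8.14 at 24 h, against 9.11, 9.29 and 9.22 at 12 h (difference -1.09 ± 0.07, adjusted p = 5.27e-07). Slc16a3, a lactate exporter, fell by 0.57 ± 0.04, whereas Vegfa, the endothelial growth factor, rose by 0.52 ± 0.04 and Ndrg1 by 0.47 ± 0.04. Of 32 oxidative phosphorylation genes, 6 were lower and 2 higher (median -0.09), and the count lower was 3 without 12 h array 3. Of 25 ribosome biogenesis genes, 3 were lower (Nop58, Rrp9 and Ncl) and 2 higher (Nob1 and Nop56), with a median of 0.02. Nop58 did not pass without 12 h array 1 or without 24 h array 2 or 3, nor Nop56 without 12 h array 3 (adjusted p of 0.0596 to 0.0896). Lysosome and autophagy genes numbered 26, of which 7 were higher and 2 lower (median 0.06), with Ulk1, which starts autophagy, higher by 0.33 ± 0.04 and Gabarapl1 lower by 0.33 ± 0.05. Their count lower was 4 without 24 h array 1. It was 1 without any one of control arrays 1 to 3, 6 h array 1, 12 h arrays 2 and 3 and 24 h array 2. Of 20 FoxO and starvation-associated genes, 5 were higher and 3 lower (median 0.00), and the count higher was 3 without 12 h array 1 or without 24 h array 1. Among the FoxO genes, Foxo3 fell by 0.32 ± 0.06 and Ccng2 by 0.38 ± 0.07.

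Growth factor genes moved in both directions. Of 34 growth factors and receptors, 11 were higher (32.4%) and 8 lower (23.5%), with a median of 0.05. Over all genes 14% were higher and 13.5% lower. Igf1, the insulin-like growth factor, had values of 7.09, 6.85 and 7.20 at 24 h, against 8.20, 8.08 and 8.17 at 12 h (difference -1.10 ± 0.09, adjusted p = 5e-06). Ereg, epiregulin, a ligand of the EGF receptor, had values of 8.84, 8.62 and 8.53 at 24 h and 9.60, 9.79 and 9.71 at 12 h. It was lower at 24 h in all arrays (difference -1.04 ± 0.08, adjusted p = 3.54e-06), and Egfr was lower by 0.39. Igfbp5, a binding protein for IGF, rose by 0.86 ± 0.12 and Fgf18 and Hbegf, another EGF receptor ligand, were higher by 0.63 and 0.46.

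The TGF-beta and BMP list had more rises than falls: of 27 genes, 16 were higher and 7 lower, with a median of 0.19. The falls included secreted antagonists of BMP and activin, with Grem1 (gremlin) at 10.74, 10.73 and 10.89 at 24 h against 11.52, 11.62 and 11.59 at 12 h (difference -0.79 ± 0.06, adjusted p = 1.61e-06) and Fst (follistatin) lower by 0.70 ± 0.07. The rises included the BMP target Id2 by 0.51 ± 0.07, and Id1 and Id3 were higher by 0.40 and 0.17. The ligand gene Bmp2 was higher by 0.51 ± 0.16 (adjusted p = 0.0309), which did not pass without 12 h array 1 or without 24 h array 1 or 3 (adjusted p = 0.1, 0.0778 and 0.0872). Other antagonists went up, Nog (noggin) by 0.29 and Fstl3 by 0.46.

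Of 26 Wnt pathway genes, 8 were higher and 2 lower, with a median of 0.10, and the count higher was 5 without 12 h array 3. Nkd2, an inhibitor of Wnt signalling, had values of 11.63, 11.72 and 11.70 at 24 h, against 10.86, 10.92 and 11.03 at 12 h (difference 0.75 ± 0.05, adjusted p = 1.62e-06). The frizzled receptor genes Fzd8 and Fzd1 rose by 0.64 ± 0.05 and 0.55 ± 0.06, and Sfrp2, a secreted Wnt antagonist, fell by 0.44 ± 0.08. Of 17 Notch pathway genes, 4 were higher and 3 lower, with a median of 0.13. These are 23.5% and 17.6%, against 14% and 13.5% of all genes. Hey1, Notch3 and Jag1 rose by 0.44 ± 0.08, 0.39 ± 0.04 and 0.32 ± 0.04, and Rbpj, the DNA-binding partner of Notch, fell by 0.27 ± 0.06.

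Of 30 collagen and matrix assembly genes, 8 were lower (26.7%) and 4 higher (13.3%), with a median of -0.05. Over all genes 13.5% were lower and 14% higher, so the share of rises in this list was near that of all genes. Loxl4, a lysyl oxidase, had values of 8.44, 8.38 and 8.50 at 24 h, against 9.19, 9.32 and 9.22 at 12 h (difference -0.80 ± 0.05, adjusted p = 8.55e-07). Col14a1 fell by 0.75 ± 0.04 and Col11a1 by 0.43 ± 0.05, while Col1a1 was lower by 0.16 and Col3a1, Fn1 and Eln did not pass, at -0.10, 0.01 and -0.06. Of 17 matricellular genes, 8 were higher and 4 lower (median 0.12), with Ccn4 lower by 0.66 ± 0.04 and Mgp, an inhibitor of calcification, lower by 0.68 ± 0.07, while Ccn1 and Ccn2 were higher by 0.26 and 0.23. Of 23 osteochondrogenic and calcification genes, 8 were lower and 5 higher (median 0.08), and the count higher was 3 without any one of 24 h arrays 1 to 3, 12 h arrays 1 and 3, 6 h array 1 and control array 3. Col10a1, a cartilage collagen, rose by 0.73 ± 0.06, and Ankh, a pyrophosphate exporter, fell by 0.64 ± 0.05.

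Of 26 matrix proteases and inhibitors, 7 were higher and 4 lower, with a median of 0.11. These are 26.9% and 15.4%, against 14% and 13.5% of all genes. Plau, urokinase, had values of 7.04, 6.90 and 7.03 at 24 h, against 8.07, 8.37 and 8.22 at 12 h (difference -1.22 ± 0.08, adjusted p = 6.79e-07). Plat, the tissue plasminogen activator, had values of 10.46, 10.48 and 10.57 at 24 h and 11.64, 11.62 and 11.56 at 12 h (difference -1.10 ± 0.07, adjusted p = 5.32e-07), and was still 2.16 ± 0.07 above the control (adjusted p = 2.5e-09). Both activators thus fell along with Serpinb2, their inhibitor. Timp3, an inhibitor of matrix metalloproteinases, was higher by 0.46.

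Of 28 cytokine, chemokine and adhesion genes, 7 were lower and 3 higher, with a median of -0.00, where 13.5% of all genes were lower and 14% higher. Vcam1, an adhesion molecule for leukocytes, had values of 9.43, 9.26 and 9.43 at 24 h, against 8.38, 8.56 and 8.71 at 12 h (difference 0.83 ± 0.10, adjusted p = 1e-04), and Ptgs2, the inducible cyclooxygenase, rose by 0.47 ± 0.07. Cxcl12 fell by 0.48 ± 0.05, and Ccl2 and Icam1 were lower by 0.38 and 0.19. Of 24 interferon-responsive genes, 5 were lower and 1 higher, with a median of -0.03, and the count lower was 3 without 12 h array 1 or 2 or without 24 h array 3. Usp18, which restrains interferon signalling, was the most variable, with 5.10, 4.92 and 5.62 at 24 h against 5.93, 6.06 and 6.43 at 12 h (difference -0.93 ± 0.21, adjusted p = 0.00674). Tap1, a peptide transporter, fell by 0.49 ± 0.07, and the 1 gene that rose was Gbp5 (0.68 ± 0.05). Of 8 genes of MHC class II antigen presentation, Cd74 rose by 0.49 ± 0.07 and RT1-Ba was higher by 0.51 (adjusted p = 0.0253, and 0.0516 to 0.0715 without any one of the 24 h arrays), with a list median of 0.10.

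Markers of other cell types gave mixed counts, where 14% of all genes were higher and 13.5% lower. Of 14 endothelial markers, 3 were lower (Esm1, Flt1 and Tek) and 2 higher (Erg and Cldn5). The median was 0.01, and the members ran from -1.91 to 0.93. Tek did not pass without 12 h array 3 or without 24 h array 2 (adjusted p = 0.0543 and 0.0521). Flt1, a VEGF receptor, had values of 9.48, 9.45 and 9.49 at 24 h, against 10.69, 10.76 and 10.63 at 12 h (difference -1.22 ± 0.05), while Pecam1, Cdh5 and Kdr, which define endothelium, did not pass, at 0.09, -0.02 and 0.07. Of 16 leukocyte and macrophage markers, 1 was lower (Cd14, -1.03 ± 0.08) and 0 higher, with a median of 0.09. Without 12 h array 2 the count higher was 3.

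Some genes lay beyond every other group at 24 h. Such genes were counted for the 24 h group only, so their number cannot be called particular to the late state. At 24 h, 698 genes were higher than at 12 h, at 6 h and in the control (4.81%), and 715 were lower than in all 3 (4.93%); the 3 tests share the 24 h arrays. The genes farthest above the other groups were Pdlim3, Myh2, Myh1, Adcy5, Hspb7, Epm2a, Rab39a and Slc35f2. Pdlim3 had values of 11.36, 11.18 and 11.16 at 24 h, against 10.00, 10.08 and 10.08 at 12 h, and was 1.44 ± 0.06 above the control. Myh1, another fast skeletal myosin heavy chain, had 11.35, 11.33 and 11.41 at 24 h against 10.16, 10.26 and 10.27 at 12 h. Probe sets of near-identical myosin genes may share signal, so the rises of Myh1 and Myh2 cannot be assigned to one gene with certainty. Adcy5, an adenylyl cyclase, rose by 0.98 ± 0.05, Hspb7, a small heat shock protein of muscle, by 0.94 ± 0.08 and Epm2a, the glycogen phosphatase laforin, by 1.17 ± 0.08. Rab39a and Slc35f2 rose by 0.90 ± 0.07 and 0.88 ± 0.08. Against the control these 8 genes stood at 0.87 to 1.44 at 24 h.

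The genes farthest below the other groups were Ccnd1, Cd36, Ereg, Cd14, Emp1, Klf4, Plk2 and Mt2A. Cd36, a scavenger receptor and fatty acid transporter, had values of 7.99, 8.02 and 7.98 at 24 h, against 9.04, 9.11 and 9.32 at 12 h (difference -1.16 ± 0.08, adjusted p = 9.03e-07). Its second probe set differed by -0.94, and at 24 h Cd36 was 1.74 ± 0.08 below the control (difference -1.74). Emp1, a membrane protein of epithelial and proliferating cells, fell by 1.01 ± 0.06, Plk2, a stress-induced polo-like kinase, by 0.99 ± 0.06 and Mt2A, a metallothionein that binds zinc, by 0.97 ± 0.08. Ereg and Klf4 were the lowest of these against the control, at -2.45 ± 0.08 and -2.53 ± 0.07.

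**Figure D4:**
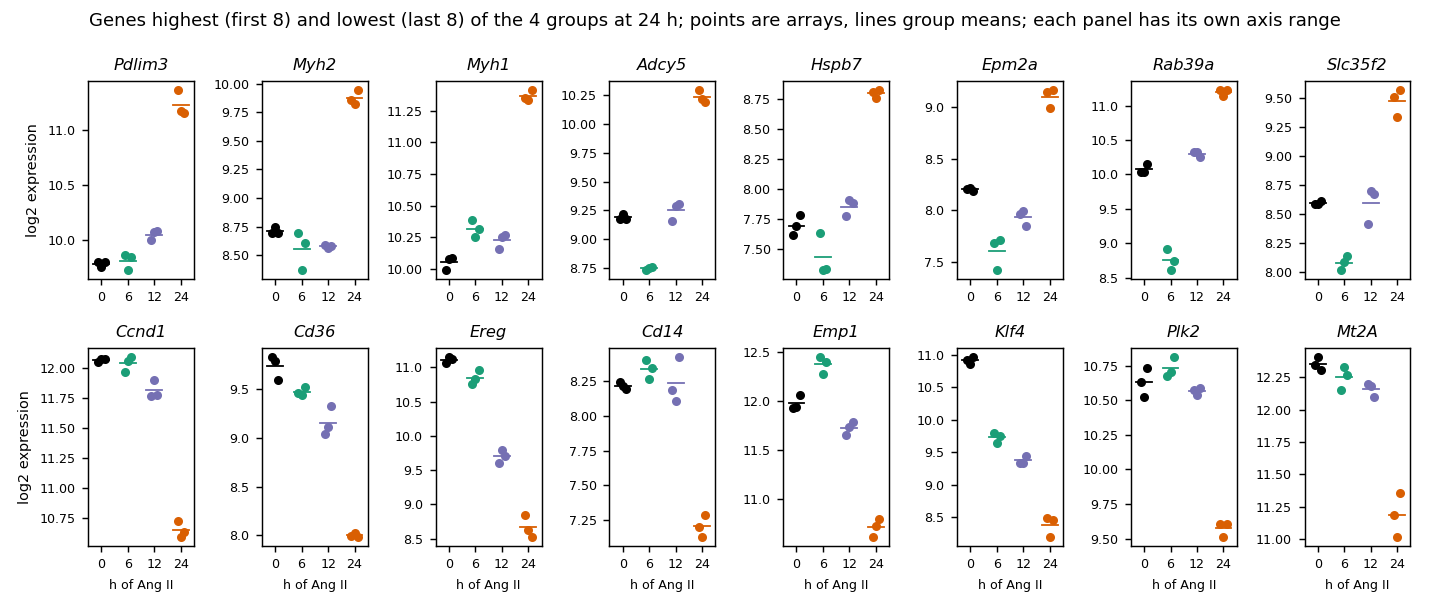
Log2 values of single arrays in all 4 groups for the 8 genes farthest above and the 8 farthest below the other groups at 24 h, with short lines at the group means, the hours of Ang II on the horizontal axis (0 is untreated) and an own vertical range in each panel. Pdlim3, for example, lies at 11.16 to 11.36 at 24 h, and Ccnd1 at 10.59 to 10.72.

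The last interval was compared with the first, 6 h against the control, which uses none of its arrays. Of 468 genes at least 1.5-fold higher at 6 h than in the control (3.23% of all genes), 290 (62%) were lower at 24 h than at 12 h and 24 (5.13%) were higher, with a median of -0.29. Of 529 genes at least 1.5-fold lower at 6 h (3.65%), 209 (39.5%) were higher at 24 h than at 12 h and 82 (15.5%) were lower, with a median of 0.11. Over all 14506 genes, 13.5% were lower and 14% higher. Without the size limit, of 2703 genes raised at 6 h (18.6%), 32.4% were lower and 10.4% higher at 24 h than at 12 h, and of 2488 genes lowered at 6 h (17.2%), 29.9% were higher and 15.6% lower. Across genes the correlation between the 2 differences was -0.357 (Pearson) and -0.195 (Spearman), given as a description since genes are not independent replicates. In both sets more genes moved against their early direction than along it, and the 24 and 82 genes that moved along it were the smaller groups.

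**Figure D5:**
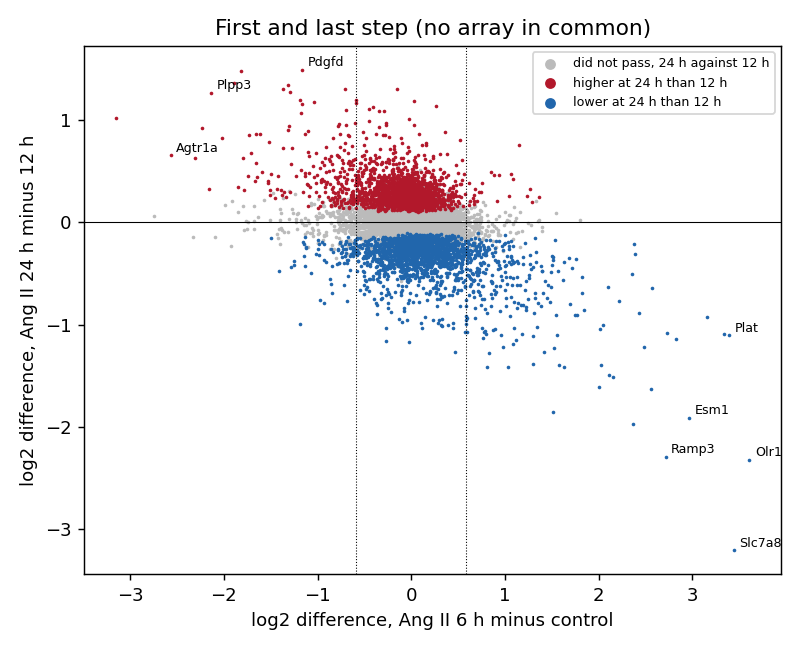
Difference between Ang II 24 h and 12 h against the difference between Ang II 6 h and control (both log2), 1 point per gene, coloured by the call at 24 h against 12 h, with dotted lines at 1.5-fold. Right of the dotted lines, 62% of the genes called at 6 h were lower at 24 h than at 12 h, and left of them 39.5% were higher.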

How the data were processed

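Total RNA from 12 samples (100 ng, Trizol, biotin label, per the labels' protocols) was put on Affymetrix Rat Gene 1.0 ST arrays. The authors deposited log2 values for each probe set, and the submitters' processing notes name RMA and Partek. Which versions, background step and summary level were used is not given in the sources used here. The 29214 rows ranged over 2.25 to 14.6, with array medians between 7.22 and 7.32. All 12 arrays were used, grouped by title. Precision is limited by the number of arrays, with a median standard error of 0.0667 for a difference.

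The platform's annotation named 15310 probe sets with 1 symbol and 323 with several, and 13581 are unnamed here. With several probe sets (527 genes), the one with the highest mean over the 12 arrays was used, which left 14506 genes. Symbols were matched to RefSeq (GRCr8) by gene identifier for 14481, and no coordinates of probe sets are given. Of the genes' rows, 24 equalled another row in all values, none of them among the named genes.

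The test was limma 3.58.1 (R 4.3.3), with 4 group means fitted over the 12 arrays (8 residual and 3.37 prior degrees of freedom), two-sided, adjusted by Benjamini-Hochberg over all 14506 genes, with a threshold of 0.05 and no filter on dim genes. A gene was called highest or lowest at 24 h when all 3 contrasts with the other groups passed with 1 sign. The fit was tested on simulated data with known changes, 50 genes at each size. It recovered 58% of changes of 1.25-fold, 92% at 1.5-fold, 98% at 2-fold and 100% at 4-fold. In these data 7 unchanged genes were called. The noise was drawn independently for each value, so shifts of a whole array were not tested.

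The members and lists were chosen with earlier results of these data known. The 34 lists hold 838 entries, 759 of them measured, and are described by counts and medians with no list test. Named genes are the 12 largest rises and falls with separated arrays, the 8 genes farthest above or below the other groups at 24 h, up to 4 called members of each list by size, the Ang II receptors and the genes at the threshold. Other members are named only to say which passed or what a list's direction rests on, and were chosen after their values were seen. Same-numbered arrays of 24 h and 12 h had deviations that correlated at -0.0889, 0.0117 and 0.172, so the numbers were not used as pairs.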

Additional observations from a re-analysis of the deposited data

Results flagged for a closer look

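One result came from data outside the genes described above. Of the 13581 probe sets that the annotation used here does not name, 1642 (12.1%) differed between 24 h and 12 h by limma (adjusted p under 0.05), 844 higher and 798 lower, with the largest rise at 1.62 and the largest fall at -2.73 on the log2 scale. There are no control arrays for this comparison other than those in the fit, and no explanation was tested.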

How the results depend on the processing

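Of the counts that lead the comparison, the numbers of genes higher and lower ranged over 1536 to 2044 and 1520 to 2121 when single arrays were left out; for differences of at least 1.5-fold the ranges were 125 to 146 higher and 208 to 256 lower, and for genes highest or lowest at 24 h 583 to 704 and 505 to 831. With the replicate block the counts were 2003 and 1893, and with only the arrays of the 2 groups compared 1443 and 1516. Leaving out 12 h array 1 and 24 h array 2 together, an alternative chosen after seeing the data, gave 1446 and 1437. These 2 arrays had the lowest standard deviations of all values, 2.321 and 2.307. By interquartile range, other arrays were narrower than 12 h array 1. Array weights gave 1947 and 2077, trended and robust eBayes 2251 and 2246, and no moderation 1877 and 1916. An adjusted p under 0.01 left 1070 higher and 1310 lower, with 388 highest and 415 lowest at 24 h. A test against a minimum of 1.5-fold (treat) left 32 higher and 73 lower. With all 29214 probe sets, the unnamed ones included, 212 were higher and 354 lower by at least 1.5-fold. Centring each array on its median moved the count of genes highest at 24 h to 1168. Leaving out arrays or changing the scaling moved by no more than 1.5 times the counts lower of the G1/S, mitotic, cholesterol and fatty acid lists, the count higher of the contractile list and both counts of the clock list. Smaller counts did move: cholesterol genes higher were 1 in place of 2 with quantile normalization, mitotic genes higher 1 in place of 0 with median centring, and contractile genes lower 1 in place of 0 with quantile normalization. No named gene that was called reversed its sign under the alternatives run. Of 157 named genes that were called, 16 lost the call under at least 1 alternative, among them Agt, Agtrap, Bmp2, Hspb2, Mme, Mmp10, Nop56, Nop58, RT1-Ba, Rgs5 and Tek. The replicate block moved no list count of 4 or more by over 1.5 times except the osteochondrogenic rises (3 in place of 5). List counts that moved by over 1.5 times without 1 array, other than those given with their lists, were all of 3 or fewer genes. The number of arrays, 3 a group, limits what can be called.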

Other observations

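The 2 gene groups given here were drawn up after the data were seen, so that their counts describe and support nothing. Sarcomere genes of striated muscle were more often higher at 24 h than at 12 h. Of 34 measured, 17 were higher and 2 lower, with a median of 0.23, against 14% higher and 13.5% lower over all genes. At 24 h, 14 were highest of all 4 groups (4.81% of all genes were so). Several of the 17 were dim, such as Myh4, Tnnt2 and Mybpc2 with 24 h means of 6.47, 6.80 and 6.89. Across all genes, the lowest band of level had 245 higher and 38 lower. Acta1, skeletal actin, had values of 14.12, 14.06 and 14.07 at 24 h, against 13.67, 13.65 and 13.61 at 12 h. These arrays did not overlap (difference 0.44 ± 0.04, adjusted p = 1.12e-05). Tnnc1, the slow and cardiac troponin C, rose by 0.63 ± 0.07, Actc1, cardiac actin, by 0.57 ± 0.07 and Myh3, the embryonic myosin heavy chain, by 1.00 ± 0.09. Casq2, a calcium-binding protein of the sarcoplasmic reticulum, rose by 0.30 ± 0.05. The 2 that fell were Klhl41 and Cryab (a small heat shock protein), the second by 0.25 ± 0.04. Ttn, Actn2 and Myh7, which mark striated muscle, did not pass, at 0.04, 0.01 and 0.16. Probe sets of near-identical actin and myosin genes may share signal with their smooth muscle and non-muscle relatives.

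Of 28 measured genes of xenobiotic and aldehyde detoxification, 13 were lower, 0 higher and 15 did not pass, with a median of -0.21. At 24 h, 8 were lowest of all 4 groups (4.93% of all genes were so). Akr1b8, an aldo-keto reductase, had values of 8.31, 8.21 and 8.22 at 24 h, against 9.60, 9.65 and 9.65 at 12 h. The arrays were more than 1 log2 unit apart (difference -1.38 ± 0.06, adjusted p = 5.2e-08). Gstp1, a glutathione transferase, fell by 0.71 ± 0.04 and Ahr, the aryl hydrocarbon receptor, by 0.56 ± 0.04, together with its repressor Ahrr by 0.45 ± 0.06. Cyp1b1, a target of Ahr, fell by 0.19 ± 0.04, while Cyp1a1 did not pass, at -0.31. This list shares 8 genes with the antioxidant list of the report: Nqo1, Gss, Txnrd1, Srxn1 and Gclm, which were lower, and Gclc, Slc7a11 and Gsta4, which did not pass (-0.12, 0.01 and -0.11).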
